A study of Homo sapiens with 54 samples.

Results

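RNA was compared between HEK293T cells that expressed the RfxCas13d variant N2V7 with the crRNA S3 and HEK293T cells that expressed the same variant with a non-targeting crRNA (NTG). Libraries were assigned from the labels to N2V7_S3 (n = 3) and N2V7_NTG (n = 3), which are 6 of the 54 samples of the series. HEK293T is a human embryonic kidney line that carries the SV40 large T antigen. Both groups were of wild-type genotype per the labels and received effector plasmids by transient transfection, so that a culture can hold transfected and untransfected cells together. The names of the study's plasmids place the effector behind the CAG promoter and the crRNA behind the U6 promoter. Cells were harvested 48 h after transfection per the labels, and the paper puts its RNA-seq at a later hour. The design text calls each replicate an independent biological one.

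The labels call S3 an additional crRNA and name no target for it. The series programmed native RfxCas13d (WT) and the high-fidelity variants N2V7 and N2V8 against C9ORF72. The comparison asks which transcripts differ when N2V7 carries S3 in place of a non-targeting crRNA. WT and N2V8 with S3 or NTG, N2V7 with the crRNAs S13, S4 and S7, and untransfected cells (UT), each with 3 libraries of the same line and genotype, were used to place the S3 values.

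Cas13 proteins are RNA-guided ribonucleases. Once the crRNA pairs with its target, the activated nuclease can also cut bystander RNA, which is called collateral activity, and high-fidelity variants carry substitutions meant to lower it. Cells answer several kinds of stress through the integrated stress response, in which phosphorylation of the initiation factor eIF2 slows most translation and raises that of the transcription factor ATF4, a driver of genes for amino acid synthesis, transport and tRNA charging.

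The 6 libraries held 10219638 to 12319152 estimated counts, and all libraries of the series held 9546826 to 15099153. Ribosomal RNA genes took 2.07% to 2.3% of the counts in N2V7_S3 and 1.76% to 3.07% in N2V7_NTG. Of 14 HEK293T markers, 13 were at 1 CPM (counts scaled to the library total) or more in all 6 libraries and DLK1 was at 0, and their summed level was 1598 to 1661 CPM in N2V7_S3 and 1662 to 1685 CPM in N2V7_NTG. Of 12 neuroblastoma markers, PHOX2A and DBH were at 0, and GATA3, ISL1 and HAND2 were at 1 CPM or more in all 6 libraries. GATA3 was the highest, at 36.49 to 40.01 CPM in N2V7_S3 and 32.96 to 37.1 CPM in N2V7_NTG. In that order the sum of the list was 58.7 to 65.3 CPM against 56.1 to 61.4 CPM. Of 15 markers of other lineages 7 were at 0, among them PTPRC of blood cells. COL1A1 and EPCAM were at 1 CPM or more in all 6 libraries. COL1A1 stood at 17.48 to 26.21 CPM in N2V7_S3 and 17.52 to 21.97 CPM in N2V7_NTG. The sum of this list was 22.8 to 32.0 CPM against 22.4 to 26.1 CPM. Outside these groups, replicate 2 of N2V7_S4 stood apart, with deviations from its group that had an SD of 0.523 on the log2 scale, where libraries outside N2V7_S4 reached at most 0.269.

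C9orf72, the gene the series was built around (chromosome 9, 27546546 to 27573866, RefSeq, GRCh38.p14), was not called. It stood at 27.0, 31.2 and 27.4 CPM with NTG and at 31.3, 22.6 and 28.8 CPM with S3. The groups overlapped, and untransfected cells held 29.0 CPM. The log2 fold change was -0.05 ± 0.09 (SE, n = 3 per group, 95% interval -0.23 to 0.14), with an adjusted p of 0.79 by edgeR's quasi-likelihood test. The counts sum all transcript variants of the gene, so a change confined to a minor variant need not show here.

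Genes were called where the log2 fold change passed 0.32 in size and the Benjamini-Hochberg adjusted p of edgeR's quasi-likelihood test, taken over 9 comparisons at once, was under 0.05. With S3, 481 of 15378 tested genes were called higher (3.13%) and 157 lower (1.02%), 638 in all (4.15%). Without N2V7_S3 replicate 2 the counts were 383 higher and 248 lower. With the adjustment made within this comparison alone, 369 were called higher and 141 lower. Among the genes named below, ADM, LDHA, SLC2A1, ERN1, EYA1, FMO5 and RNASEK-C17orf49 lost their calls under that adjustment. The median size of the change over the 638 called genes was 0.48 on the log2 scale, 377 of them changed by less than 1.5-fold and 140 by more than 2-fold. Their changes ran from -5.01 to 8.04 on that scale. Among called genes of at least 2 log2 CPM with no overlap and more than a locus symbol, they ran from -1.15 (HSPA1B) to 1.48 (LNCTAM34A). Changes beyond these values were in genes outside that set. For 1 gene called higher, all NTG libraries were at 0. The median over all tested genes was 0.02. Of the called genes 606 did not overlap between the groups, as did 26.9% of all tested genes. Of the called genes 37 had only a locus symbol and are not named, 36 of them higher. In bulk RNA of a transfected culture, a change in every cell and a change in the share of cells that express a gene cannot be told apart.

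**Figure D1:**
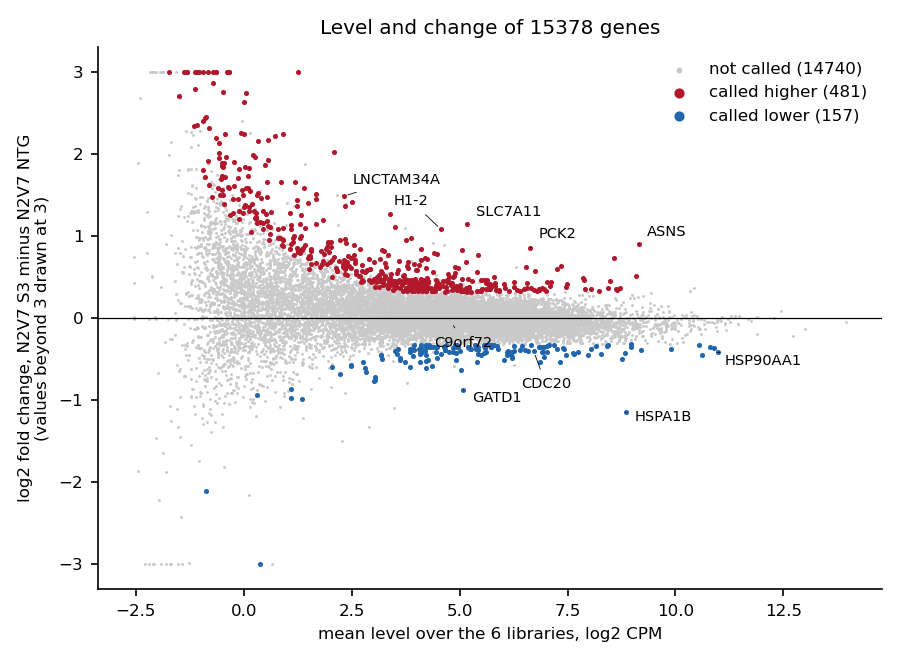
Each point is a tested gene, with its mean level over the 6 libraries in log2 CPM on the x axis and the log2 fold change of N2V7_S3 minus N2V7_NTG on the y axis. Below 2 log2 CPM, 173 genes were called higher and 6 lower, and from that level up 308 were higher and 151 lower.

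The rises lay more among weakly expressed genes than the falls did. Genes were divided by mean level into 4 bins of equal size. In the lowest bin 4.89% of genes were called higher and 0.208% lower, with a median log2 fold change of 0.20. In the highest bin 1.09% were called higher and 1.4% lower, with a median of -0.05. By transcript length the share called lower was 1.94% in the bin of shortest transcripts and 0.443% in that of the longest, while the share called higher was 2.77% and 3.32%. No test was made of these shares.

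**Figure D2:**
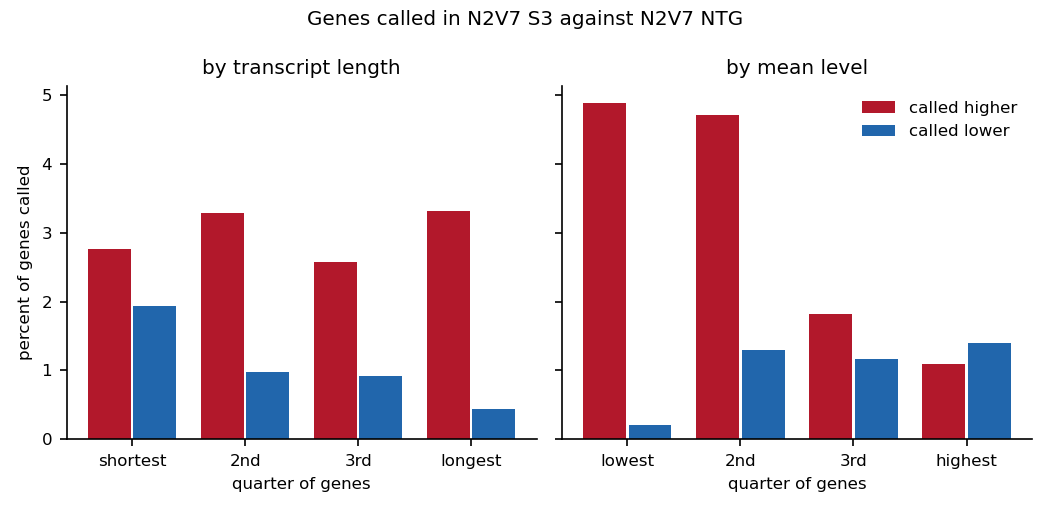
Bars give the percent of genes called higher or lower in N2V7_S3 against N2V7_NTG in each of 4 equal bins of the genes, by transcript length (left) and by mean level (right). Higher calls stand at 4.89% in the lowest and 1.09% in the highest bin of level, and lower calls at 1.94% for the shortest and 0.443% for the longest transcripts.

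Among genes of at least 2 log2 CPM whose libraries did not overlap between the groups, the 15 largest rises held amino acid stress genes, histone genes and long non-coding RNAs. SLC7A11, the cystine and glutamate exchanger (chromosome 4, 138164097 to 138242349), stood at 25.1, 18.9 and 28.9 CPM with NTG and at 53.4, 47.2 and 60.6 CPM with S3. ASNS, the asparagine synthetase (chromosome 7, 97851677 to 97928441), stood at 407, 346 and 501 CPM with NTG and at 816, 730.3 and 789 CPM with S3. All S3 libraries lay above all NTG libraries for both genes. The log2 fold change was 1.14 ± 0.19 for SLC7A11 (edgeR adjusted p = 3.03e-05) and 0.90 ± 0.12 for ASNS (edgeR adjusted p = 4.49e-07). Untransfected cells held 55.8 ± 9.95 CPM of SLC7A11 and 754 ± 16.8 CPM of ASNS (SD, n = 3).

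CZ1P-ASNS, a readthrough transcript that runs into ASNS, rose by 1.41 ± 0.27 on the log2 scale, and the pseudogene ASNSP1 by 1.10 ± 0.16. Reads of these loci and of ASNS can be assigned to one another, so these values are uncertain. LNCTAM34A, a long non-coding RNA named as an activator of miR34a (chromosome 1, 9182204 to 9192086), had the largest log2 fold change under this rule. It stood at 3.45, 2.05 and 3.14 CPM with NTG and at 8.51, 8.54 and 7.40 CPM with S3, a difference of 1.48 ± 0.21 with no overlap (edgeR adjusted p = 1.76e-07). PURPL, a long non-coding RNA induced by p53, stood at 9.60 ± 1.36 CPM with NTG and 18.5 ± 0.993 CPM with S3, a rise of 0.94 ± 0.12. The mean in untransfected cells lay below both group means for both RNAs, at 2.52 CPM of LNCTAM34A and 6.15 CPM of PURPL.

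FUT1, a fucosyltransferase that makes the H blood group antigen, stood at 3.04, 2.79 and 3.22 CPM with NTG and at 8.41, 7.66 and 7.40 CPM with S3, a rise of 1.37 ± 0.24 (edgeR adjusted p = 2.07e-05). AKNA, a protein with an AT-hook motif, stood at 7.31, 5.78 and 6.78 CPM with NTG and at 19.7, 13.5 and 14.8 CPM with S3, a rise of 1.26 ± 0.22 (edgeR adjusted p = 5.43e-05). Neither gene overlapped between the groups, and untransfected cells lay above both groups, at 13.1 CPM of FUT1 and 31.5 CPM of AKNA. G0S2, an inhibitor of the triglyceride lipase ATGL, rose by 0.97 ± 0.16, the prostaglandin transporter SLCO2A1 by 0.95 ± 0.22 and the non-coding RNA FLJ46906 by 0.96 ± 0.20. CGA, the shared alpha subunit of the glycoprotein hormones, rose by 0.92 ± 0.28, and its call was lost without N2V7_S3 replicate 2 (0.81) or N2V7_NTG replicate 3 (0.79).

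**Figure D3:**
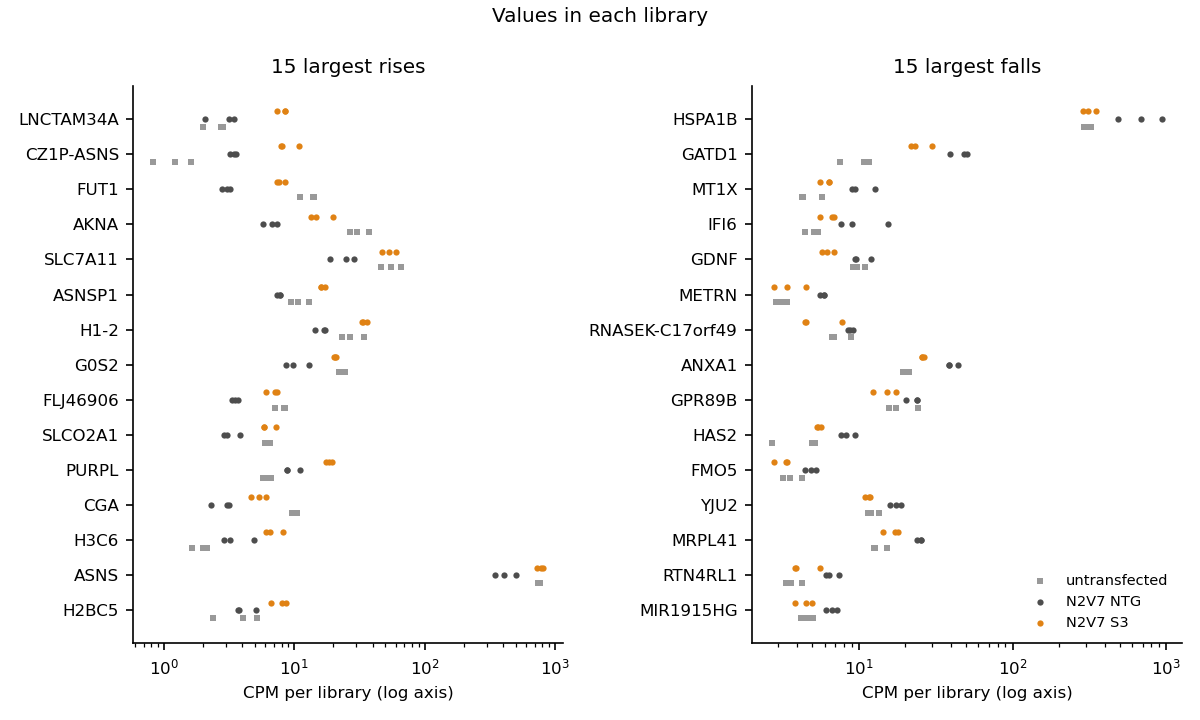
Points give CPM in each library, on a log axis, for the 15 largest rises (left) and the 15 largest falls (right) under the naming rule, with squares for untransfected cells. By that rule N2V7_S3 and N2V7_NTG do not overlap for these genes, and untransfected cells held 754 CPM of ASNS and 305 CPM of HSPA1B, values near those of N2V7_S3.

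In the integrated stress response list, 21 of 38 tested members were called higher and 0 lower, where 3.13% of all genes were called higher, and the list median was 0.37 against 0.02 over all genes. PCK2, the mitochondrial phosphoenolpyruvate carboxykinase, stood at 69.1, 64.6 and 89.4 CPM with NTG and at 153, 125 and 125 CPM with S3, a rise of 0.85 ± 0.12 with no overlap (edgeR adjusted p = 1.78e-06). ATF4 itself was at 0.15, with an edgeR adjusted p of 0.0317 and a fold change under the limit. The count was 12 without N2V7_S3 replicate 1 and 13 without N2V7_NTG replicate 2, and between 20 and 22 without any other of the 6 libraries.

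Further called members of this list, chosen after their values were seen, came from its several branches. Serine and one-carbon synthesis was represented by PSAT1 (0.51), PSPH (0.47), SHMT2 (0.33), MTHFD2 (0.35) and ALDH1L2 (0.63), and neutral amino acid transport by SLC1A4 (0.50). Among regulators, the transcription factors ATF5 (0.84), DDIT3 (0.55), CEBPB (0.43) and CEBPG (0.42), the pseudokinase TRIB3 (0.77), the mTORC1 inhibitor DDIT4 (0.59) and the glutathione-degrading enzyme CHAC1 (0.82) were called higher. Several members passed the p threshold with a change under the limit, such as PHGDH at 0.24 and SLC3A2 at 0.27. The hormone gene FGF21 stood at 1.38, with under 1 CPM in the mean of either group and an edgeR adjusted p of 0.0679.

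Aminoacyl-tRNA synthetases, which charge tRNAs with amino acids, held 4 members called higher of 20 and 0 lower, where 3.13% of all genes were called higher, with a list median of 0.23. SARS1, the seryl-tRNA synthetase, stood at 300.3, 294 and 324 CPM with NTG and at 436, 399 and 417 CPM with S3, a rise of 0.45 ± 0.05 with no overlap (edgeR adjusted p = 8.49e-10). GARS1, for glycine, rose by 0.37 ± 0.05 and CARS1, for cysteine, by 0.34 ± 0.07. The call of CARS1 was lost without N2V7_S3 replicate 1 (0.29) or N2V7_NTG replicate 2 (0.28). The list held 2 called members without N2V7_S3 replicate 1, 2 without N2V7_NTG replicate 2 and 7 without N2V7_NTG replicate 3.

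ATF4 and its partners bind a composite DNA element known from amino acid stress genes. The letters TGATGNAA were searched on both strands of each promoter, from 250 bases before to 50 after the RefSeq start (GRCh38.p14). Of the called stress response genes 16 had a promoter in the reference table and 2 of these held the letters, and of the called synthetases 3 had one and 1 held them. These windows are shown because they belong to called members of both lists, each read 5′ to 3′ on the gene's strand with the matched letters, or their reverse complement, in capitals.
ASNS: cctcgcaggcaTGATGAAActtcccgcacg
CHAC1: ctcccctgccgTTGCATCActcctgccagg
CARS1: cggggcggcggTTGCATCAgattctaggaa
The ASNS window lies at chr7:97872458-97872487 on the minus strand, the CHAC1 window at chr15:40953251-40953280 on the plus strand and the CARS1 window at chr11:3057407-3057436 on the minus strand. Members that were not called held the letters in 4 of 15 stress response promoters and 5 of 13 synthetase promoters. The share was 3.56% of the 365 called higher genes with a promoter, 0.714% of the 140 called lower, 1.68% of the 12103 tested genes with one and 3.67% of all 27305 promoters in the table. A match describes the letters only.

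Replication-dependent histone genes, whose mRNAs mostly end in a stem-loop in place of a poly(A) tail, held 7 members called higher of 29 and 0 lower, where 3.13% of all genes were called higher, with a list median of 0.38. H1-2, a linker histone (chromosome 6, 26055740 to 26056470), stood at 14.4, 17 and 17.2 CPM with NTG and at 33.5, 36.5 and 32.8 CPM with S3, a rise of 1.08 ± 0.15 with no overlap (edgeR adjusted p = 1.2e-06). H3C6 rose by 0.91 ± 0.21, H2BC5 by 0.89 ± 0.18 and H2BC11 by 1.28 ± 0.28. The libraries were made with an mRNA kit and histone genes have near-identical copies, so these values are uncertain. Leaving out any 1 of the 6 libraries left 6 to 7 called.

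Small nucleolar RNA host genes, whose introns carry snoRNAs, held 5 members called higher of 24 and 0 lower, where 3.13% of all genes were called higher, with a list median of 0.04. SNHG1 stood at 90.7, 82.4 and 91.3 CPM with NTG and at 135, 133 and 125 CPM with S3, a rise of 0.57 ± 0.08 (edgeR adjusted p = 2.02e-06), and untransfected cells held 266 CPM. SNHG7 rose by 0.56 ± 0.10 and EPB41L4A-AS1 by 0.48 ± 0.09, the latter an antisense gene whose reads depend on strand use in counting, which is not given in the sources used here. Of 15 nuclear long non-coding RNAs 3 were called higher and 0 lower, against the same 3.13%, with a median of 0.23. KCNQ1OT1, the imprinted antisense RNA of KCNQ1, rose by 0.71 ± 0.20, PVT1 by 0.69 ± 0.15 and TUG1 by 0.34 ± 0.07. The call of KCNQ1OT1 was lost without N2V7_S3 replicate 2 (0.63) or N2V7_NTG replicate 2 (0.65), and that of TUG1 without N2V7_S3 replicate 1 (0.28) or N2V7_NTG replicate 1 (0.32).

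Of 30 p53 targets 3 were called higher, the mitophagy gene SPATA18 (0.46), the growth arrest gene GADD45A (0.36) and the leucine sensor SESN2 (0.35), which is also on the stress response list. Over all genes 3.13% were called higher. The list median was 0.08. The call of GADD45A was lost without N2V7_S3 replicate 1 (0.26) or N2V7_NTG replicate 3 (0.31), and that of SESN2 without N2V7_S3 replicate 1 (0.31) or N2V7_NTG replicate 2 (0.22), so that 1 p53 target was called without N2V7_S3 replicate 1.

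In the endoplasmic reticulum unfolded protein response 2 of 29 were called higher, beside 3.13% of all genes, with a median of 0.03. XBP1, a transcription factor of that response, stood at 302, 301 and 319 CPM with NTG and at 377, 401 and 406 CPM with S3, a rise of 0.36 ± 0.05 with no overlap (edgeR adjusted p = 4.95e-07). The sensor kinase ERN1 was at 0.32 ± 0.12 (edgeR adjusted p = 0.0491), and its call was lost without N2V7_S3 replicate 1 (0.24), N2V7_S3 replicate 2 (0.34), N2V7_S3 replicate 3 (0.35), N2V7_NTG replicate 2 (0.23) or N2V7_NTG replicate 3 (0.33). Few genes were called in other lists. The AP-1 subunit JUND was higher by 0.33, a call lost without N2V7_S3 replicate 1 (0.31), N2V7_S3 replicate 3 (0.31) or N2V7_NTG replicate 1 (0.30). The exonuclease gene ISG20 was higher by 1.66 among interferon-stimulated genes, a call lost without N2V7_NTG replicate 1 (1.48) or N2V7_NTG replicate 2 (1.40), and IFI6 of the same list was called lower at -0.75, a call lost without N2V7_NTG replicate 3 (-0.38). Among targets of SRF and YAP the smooth muscle actin ACTA2 was higher by 0.73 and ACTB, the cytoplasmic actin, was called lower at -0.33, a call lost without N2V7_NTG replicate 2 (-0.27). SLC7A11 was the single called gene of the NRF2 antioxidant and iron list.

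The largest fall under the naming rule was in HSPA1B, an inducible HSP70 chaperone (chromosome 6, 31827738 to 31830254). It stood at 684, 937 and 484 CPM with NTG and at 311, 350.2 and 285 CPM with S3, a log2 fold change of -1.15 ± 0.17 (edgeR adjusted p = 5.84e-06). The groups did not overlap, the NTG libraries were the more widely spread, and untransfected cells held 305 ± 17.1 CPM. HSPA1A, a near-identical copy with which reads can be shared, was at 0.27 with an edgeR adjusted p of 0.921. With only the 6 compared libraries in the fit HSPA1B was not called, at -1.15.

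GATD1, a protein with a glutamine amidotransferase-like domain (chromosome 11, 767222 to 777487), stood at 48.1, 51.0 and 39.3 CPM with NTG and at 21.7, 23.2 and 29.9 CPM with S3, a log2 fold change of -0.88 ± 0.20 with no overlap (edgeR adjusted p = 0.00112), and untransfected cells held 10.1 CPM. The metallothionein MT1X was at -0.76, the secreted neurotrophic factor METRN at -0.69, the phospholipid-binding annexin ANXA1 at -0.63 and the hyaluronan synthase HAS2 at -0.61. The splicing factor YJU2 was at -0.60, the mitochondrial ribosomal protein MRPL41 at -0.58 and RTN4RL1, a Nogo receptor homologue, at -0.58.

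For other falls among the 15 the call was lost when single libraries were left out. IFI6, an interferon-induced gene, stood at 9.04, 7.64 and 15.6 CPM with NTG and at 6.93, 5.64 and 6.70 CPM with S3 (-0.75), with N2V7_NTG replicate 3 the highest, and its call was lost without N2V7_NTG replicate 3 (-0.38). GDNF, a neurotrophic factor, was at -0.71 and lost its call without N2V7_S3 replicate 3 (-0.65) or N2V7_NTG replicate 1 (-0.61). The non-coding MIR1915HG was at -0.58 and lost it without N2V7_S3 replicate 2 (-0.51) or N2V7_NTG replicate 2 (-0.52). GPR89B, which has a near-identical copy, was at -0.61 and lost it without N2V7_S3 replicate 3 (-0.48), N2V7_NTG replicate 1 (-0.59) or N2V7_NTG replicate 3 (-0.57). The monooxygenase FMO5 was at -0.60 and lost it without N2V7_S3 replicate 2 (-0.54), N2V7_S3 replicate 3 (-0.64), N2V7_NTG replicate 1 (-0.56) or N2V7_NTG replicate 3 (-0.60). The readthrough transcript RNASEK-C17orf49 was at -0.66 and lost it without N2V7_S3 replicate 1 (-0.55), N2V7_S3 replicate 3 (-0.51), N2V7_NTG replicate 1 (-0.67), N2V7_NTG replicate 2 (-0.63) or N2V7_NTG replicate 3 (-0.68).

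Cytosolic heat shock genes, the chaperones under HSF1, held 6 members called lower of 20 and 0 higher, where 1.02% of all genes were called lower, and the list median was -0.20. HSP90AA1, the inducible HSP90, stood at 2283, 2573 and 2167 CPM with NTG and at 1751, 1793 and 1717 CPM with S3, a log2 fold change of -0.42 ± 0.06 with no overlap (edgeR adjusted p = 1.24e-06). HSPE1, the mitochondrial co-chaperonin, was at -0.54 ± 0.11. Leaving out any 1 of the 6 libraries left 5 to 9 called lower.

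Mitosis and kinetochore genes held 6 members called lower of 38 and 0 higher, where 1.02% of all genes were called lower, with a median of -0.17. CDC20, which activates the ubiquitin ligase APC/C, stood at 116, 126 and 121 CPM with NTG and at 85.5, 97.1 and 91.5 CPM with S3, a log2 fold change of -0.41 ± 0.05 with no overlap (edgeR adjusted p = 2.91e-08). The kinesin KIF20A was at -0.39 ± 0.06, and cyclin B1, CCNB1, was at -0.38 ± 0.05, a call lost without N2V7_NTG replicate 2 (-0.32). Leaving out any 1 of the 6 libraries left 4 to 9 called lower.

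In glycolysis and hypoxia 5 of 27 genes were called lower and 2 higher, beside 1.02% and 3.13% of all genes, with a median of -0.19. LDHA, lactate dehydrogenase A, stood at 1863, 2122 and 1587 CPM with NTG and at 1244, 1472 and 1349 CPM with S3, a log2 fold change of -0.45 ± 0.15 with no overlap (edgeR adjusted p = 0.0288). Its call was lost without N2V7_S3 replicate 1 (-0.41), N2V7_S3 replicate 3 (-0.45), N2V7_NTG replicate 1 (-0.47) or N2V7_NTG replicate 2 (-0.35). The glucose transporter SLC2A1 was at -0.45 ± 0.15, a call lost without N2V7_S3 replicate 1 (-0.42), N2V7_S3 replicate 3 (-0.42) or N2V7_NTG replicate 2 (-0.24). The hypoxia-induced peptide gene ADM was called higher at 0.46, a call lost without N2V7_S3 replicate 1 (0.42), N2V7_S3 replicate 2 (0.43), N2V7_S3 replicate 3 (0.50), N2V7_NTG replicate 1 (0.36) or N2V7_NTG replicate 3 (0.42). The number called lower was 0 by edgeR without N2V7_NTG replicate 2 and 2 without N2V7_S3 replicate 1 or 3.

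Of 76 oxidative phosphorylation genes 3 were called lower and 0 higher, where 1.02% of all genes were called lower, with a median of -0.12. These were the ATP synthase subunit ATP5MC1 (-0.54) and the complex I subunits NDUFB3 (-0.41) and NDUFB6 (-0.35). Both complex I calls were lost without N2V7_NTG replicate 2, at -0.30 and -0.29. The count was 1 without that library, 6 without N2V7_S3 replicate 2 and 8 without N2V7_NTG replicate 1. Of 77 mitochondrial ribosomal proteins 4 were called lower, against the same 1.02%, among them MRPL41, MRPL23 (-0.51) and MRPS12 (-0.35, lost without N2V7_NTG replicate 2 (-0.32)), and the median was -0.07.

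Among SR and hnRNP splicing factors 2 of 43 were called, both lower, where 1.02% of all genes were called lower, with a median of -0.14. HNRNPM stood at 291, 307 and 279.6 CPM with NTG and at 221, 203 and 218 CPM with S3, a log2 fold change of -0.45 ± 0.05 with no overlap (edgeR adjusted p = 3.76e-10), and HNRNPH2 was at -0.41 ± 0.05, a call lost without N2V7_NTG replicate 2 (-0.32). Without N2V7_NTG replicate 1 the list held 4 called lower. Ribosome biogenesis held 3 called lower of 60, with a median of -0.10: RRP9 (-0.49, lost without N2V7_S3 replicate 2 (-0.41) or N2V7_NTG replicate 2 (-0.37)), EBNA1BP2 (-0.35, lost without N2V7_NTG replicate 2 (-0.26)) and NHP2 (-0.32, lost without N2V7_S3 replicate 3 (-0.31) or N2V7_NTG replicate 2 (-0.27)). The list held 6 called lower without N2V7_NTG replicate 3. PSMD1 of the proteasome (-0.45) and the tRNA methyltransferase TRMT1 (-0.42) were the single called genes of their lists, and all 31 proteasome genes had log2 fold changes below 0, with a median of -0.13. The proteasome held 3 called lower without N2V7_S3 replicate 2 and 2 without N2V7_NTG replicate 1 or 3, and tRNA processing held 3 without N2V7_S3 replicate 1 and 2 without N2V7_NTG replicate 1.

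Of C9orf72 with its complex and partners 1 of 15 was called, where 4.15% of all genes were called in either direction, with a list median of -0.03. RAB39B, a small GTPase, stood at 7.47, 5.59 and 8.02 CPM with NTG and at 10.2, 8.63 and 9.86 CPM with S3, a rise of 0.44 ± 0.13 (edgeR adjusted p = 0.0151). Its call was lost without N2V7_S3 replicate 1 (0.38), N2V7_S3 replicate 3 (0.41) or N2V7_NTG replicate 2 (0.30). SMCR8 and WDR41, the partners of C9orf72 in its complex, were at 0.02 ± 0.08 and -0.02 ± 0.05. The kinase TBK1 was at -0.32 with an edgeR adjusted p of 0.00528 and a fold change just under the limit. TBK1 was called lower in 7 of the alternative settings, and its values over all settings ran from -0.39 to -0.22.

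**Figure D4:**
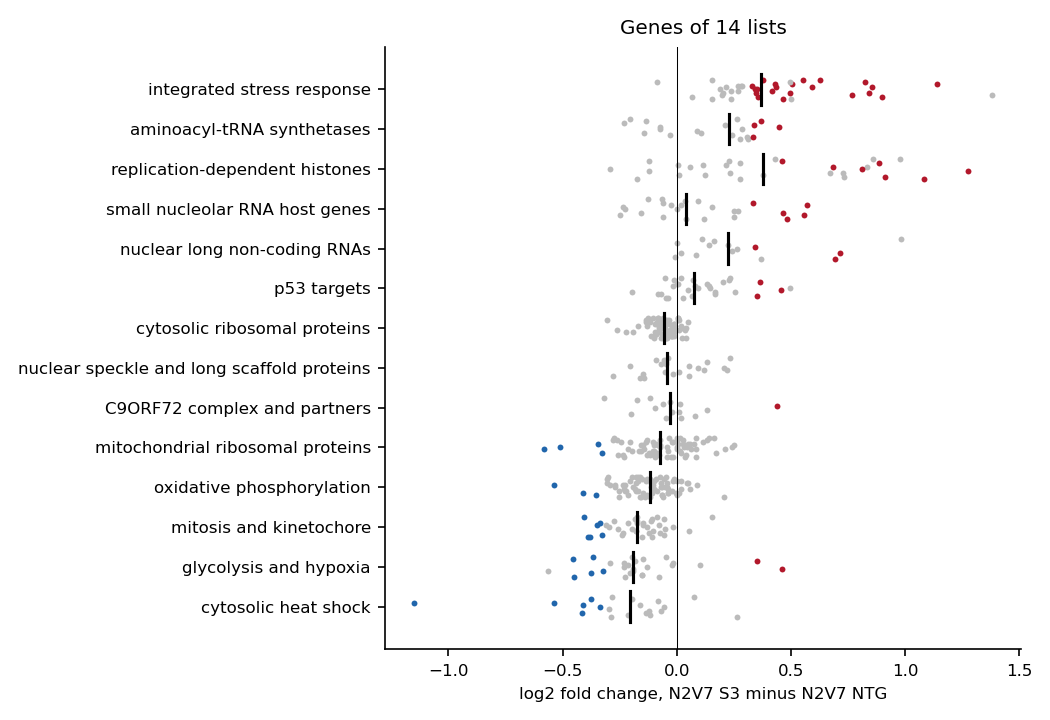
Each point is a tested gene of a list, placed by its log2 fold change of N2V7_S3 minus N2V7_NTG, red where called higher and blue where called lower, and the black bar is the list median. The stress response list has a median of 0.37, and the mitosis, glycolysis and heat shock lists have medians of -0.17, -0.19 and -0.20.

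Of all lists 13 held no gene called by edgeR, with medians from -0.16 for 18 ALS-linked RNA-binding proteins to 0.11 for 5 tested markers of other lineages. Over all genes 3332 had an unadjusted p under 0.05. The others covered NF-kB targets (15 genes), neuroblastoma markers (5), cytosolic ribosomal proteins (80), nuclear speckle and long scaffold proteins (22), structural RNAs without poly(A) tails (17), DNA replication (42), RNA decay (50), autophagy (29), cholesterol and fatty acid synthesis (31), eIF2 kinases and ribotoxic stress (24) and intrinsic apoptosis (26). A p above the threshold does not show that these genes were equal. Of the HEK293T markers EYA1 was called higher (0.44), a call lost without N2V7_S3 replicate 1 (0.32), N2V7_NTG replicate 1 (0.43), N2V7_NTG replicate 2 (0.48) or N2V7_NTG replicate 3 (0.41), and INA lower (-0.36), a call lost without N2V7_NTG replicate 2 (-0.25). The part of these shifts in the other results was not tested.

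The NTG libraries themselves differed from untransfected cells, and these values are set beside the lists without a test, since the differences share libraries. The stress response list had a median of -0.56 in N2V7_NTG minus UT and -0.15 in N2V7_S3 minus UT. For aminoacyl-tRNA synthetases these medians were -0.20 and -0.08, for heat shock 0.19 and 0.04, and for mitosis 0.29 and 0.13. In these lists the S3 median lay nearer to the untransfected level than the NTG median did. Histones, at 0.10 and 0.57, and p53 targets, at 0.23 and 0.36, lay farther from it with S3. Other lists went both ways. Glycolysis and hypoxia, at 0.05 and -0.18, and cytosolic ribosomal proteins, at -0.23 and -0.28, lay farther with S3. Oxidative phosphorylation, at 0.18 and 0.04, and the proteasome, at 0.16 and 0.02, lay nearer.

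**Figure D5:**
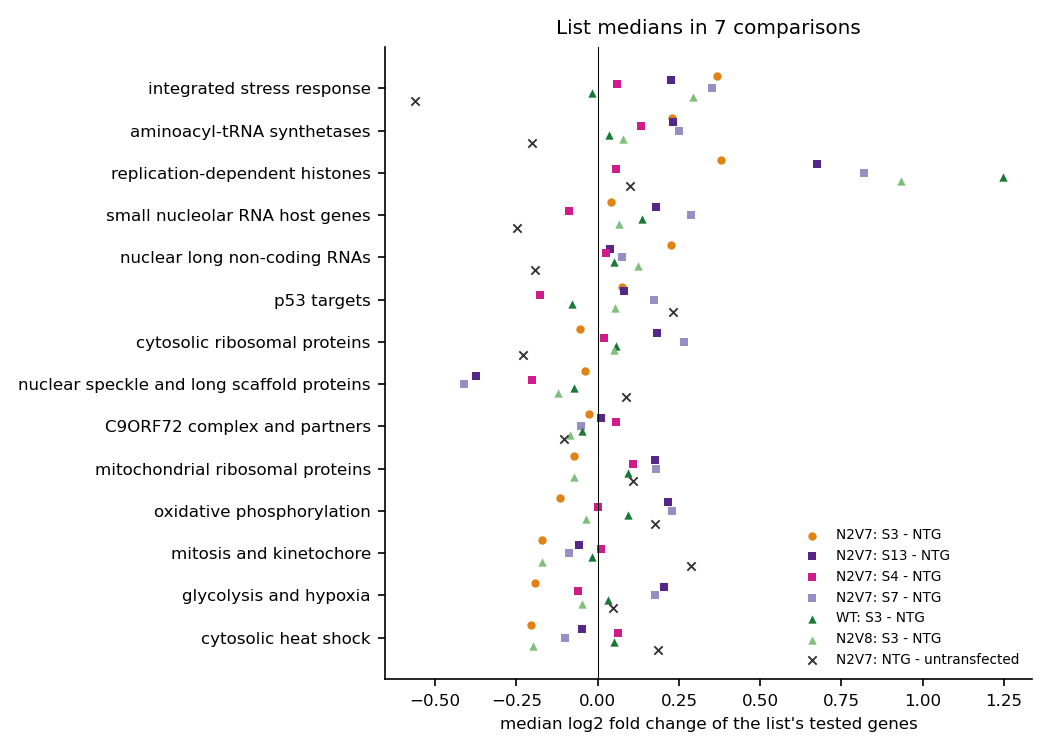
Each mark is the median log2 fold change of a list's tested genes, on the x axis, in 1 of 7 comparisons, for the lists on the y axis. The N2V7 differences share the N2V7_NTG libraries; for the stress response list S3, S13 and S7 minus NTG lie between 0.22 and 0.37 and S4 minus NTG at 0.06, with WT S3 minus NTG at -0.02, N2V8 S3 minus NTG at 0.29 and N2V7_NTG minus untransfected at -0.56.

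The other crRNAs of N2V7 were read against the same N2V7_NTG libraries and are therefore given side by side. Of the stress response genes 9 were called higher with S13 (3.66% of all genes), with a median of 0.22, and 17 with S7 (5.38% of all genes), with a median of 0.35. With S4, whose replicate 2 stood apart, 8 were called higher (9.66% of all genes) and 2 lower (14.5% of all genes), with a median of 0.06, so the S4 median lay below those of S3, S13 and S7. ASNS was at 0.90 with S3, 0.72 with S13, 0.59 with S4 and 0.92 with S7. HSPA1B was at -1.15, -0.59, -0.77 and -0.87 in that order, and AKNA at 1.26, -0.05, -0.13 and 0.28.

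S3 and S13 were also compared directly. Ribosomal RNA genes took 2.07% to 2.3% of the counts with S3 and 4.17% to 4.42% with S13. The median log2 fold change of S13 against NTG was 0.15 in the bin of shortest transcripts and -0.13 in that of the longest, beside -0.01 and 0.04 for S3, and the part of transcript length and of ribosomal RNA in these differences was not tested. Of all genes 2364 were called (15.4%), 1644 higher with S3 (10.7%) and 720 lower (4.68%). Of 22 nuclear speckle and long scaffold proteins 14 were higher with S3 and 0 lower, with a median of 0.40. Of 76 oxidative phosphorylation genes 51 were lower with S3 and 0 higher, with a median of -0.35. Glycolysis and hypoxia held 16 lower of 27 (median -0.42), mitochondrial ribosomal proteins 18 of 77 (-0.25) and the proteasome 10 of 31 (-0.27). The stress response list held 10 higher of 38 with S3, with a median of 0.21. SLC7A11 was higher with S3 by 0.77 and AKNA by 1.31, while ASNS did not pass, at 0.18 (edgeR adjusted p = 0.256), nor did C9orf72, at -0.12 (edgeR adjusted p = 0.355). Against NTG, the nuclear speckle median was -0.04 with S3 and -0.38 with S13, and that of oxidative phosphorylation -0.12 and 0.22. In the same order the medians were -0.19 and 0.20 for glycolysis and hypoxia. They were -0.07 and 0.17 for mitochondrial ribosomal proteins and -0.13 and 0.14 for the proteasome.

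The 5 largest differences from S13 in each direction were mostly in non-coding and structural RNAs. LINC01000, a long non-coding RNA, was higher with S3 than with S13 by 1.77 ± 0.21 (edgeR adjusted p = 1.63e-09), LINC01061 by 1.5, the golgin-like gene GOLGA8A by 1.46, the readthrough transcript PKD1P6-NPIPP1 by 1.46 and the calcium channel subunit CACNG8 by 1.43. Against NTG, LINC01000 was at 0.32 with S3 and -1.45 with S13. RNA18SN4 was at -1.41, the 7SK RNA RN7SK at -1.13, RNA45SN1 at -1.04, RNA28SN1 at -0.96 and RNA28SN2 at -0.95. These RNAs lack poly(A) tails, and the ribosomal RNA genes share reads among copies. The call of RNA28SN2 was lost without N2V7_S3 replicate 3 (-0.86) or N2V7_S13 replicate 2 (-0.84).

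The S3 effect, S3 minus the effector's own NTG, differed between N2V7 and WT in 523 genes (3.4%), with 219 more positive in N2V7 (1.42%) and 304 more negative (1.98%). Of the stress response list 15 of 38 were more positive in N2V7 and 0 more negative, with a median difference of 0.36. With WT, 0 of its genes were called higher by edgeR for S3 against NTG, where 2.09% of all genes were, and the median was -0.02. SLC7A11 differed between the effectors by 1.18 and ASNS by 0.82. Of the heat shock list 7 of 20 were more negative in N2V7, HSPA1B among them at -1.33. The NTG groups entered this difference too: relative to untransfected cells the stress response median was 0.00 in WT_NTG and -0.03 in WT_S3, beside -0.56 in N2V7_NTG and -0.15 in N2V7_S3. Without N2V7_NTG replicate 2 the count of genes was 281, with 105 more positive and 176 more negative. The number more positive was 141 without N2V7_S3 replicate 1, WT_S3 replicate 3 or WT_NTG replicate 3. Without the factor of unwanted variation the count was 177.

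Histone genes led the more negative differences. H2AC18, a histone H2A gene, was at 3.51 with WT and 0.81 with N2V7, a difference of -2.70 ± 0.21 (edgeR adjusted p = 1.55e-13). H2BC21 was at 3.07 and 0.68, H4C15 at 2.16 and 0.46, and the microRNA host gene MIR17HG at 1.99 and -0.01. Of the histone list 5 of 29 were more negative in N2V7, where 1.98% of all genes were, and 0 more positive. In the other direction FUT1 differed by 1.63, the pseudogene ZNF767P by 1.46, the oviductal glycoprotein gene OVGP1 by 1.37, the pseudogene SMG1P3 by 1.32 and CGA by 1.31. The call of OVGP1 was lost without WT_NTG replicate 1 (1.10), and that of CGA in 9 of the 12 fits that left out 1 of the libraries compared, with values of 1.18 to 1.48.

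Between N2V7 and N2V8 the S3 effect differed in 23 genes (0.15%), 18 more positive in N2V7 and 5 more negative. With N2V8 and S3, 13 of the stress response genes were called higher (2.15% of all genes), with a median of 0.29, beside 21 and 0.37 with N2V7. SLC7A11 was at 0.90 with N2V8, and its difference between the effectors was 0.24 (edgeR adjusted p = 0.801, 95% interval -0.34 to 0.82). MTMR7, a myotubularin-related protein, had the largest named difference, 1.13 ± 0.28, followed by the kinase CDKL2 at 0.90. None of these genes was called by edgeR when the adjustment was made within this difference alone, where 1042 genes had an unadjusted p under 0.05. The count was 4 without N2V7_S3 replicate 3, 12 without N2V7_NTG replicate 2, 14 without N2V7_S3 replicate 1 and 15 without N2V8_NTG replicate 1. The balance of directions also depended on single libraries, with 6 positive and 8 negative without N2V7_S3 replicate 1, 12 and 16 without N2V7_S3 replicate 2, and 10 and 11 without N2V7_NTG replicate 1. The negative genes numbered 10 without N2V8_S3 replicate 1 and 9 without N2V8_NTG replicate 2.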

How the data were processed

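RNA-seq of HEK293T cells was analysed from gene-level estimated counts, deposited by the authors, who quantified reads with Salmon 1.5.2 against GRCh38 per the study's methods and the submitters' processing notes and summarised them with tximport by length-scaled TPM, which keeps multi-mapped reads. A second deposited column of other values, which marks the genes the authors kept, served only as an alternative filter. The strand setting is not given in the sources used here. Here the counts were rounded, and genes were filtered with edgeR's filterByExpr (15378 of 38137 kept). TMM factors and 1 factor of unwanted variation from residuals entered 1 quasi-likelihood fit of all 54 libraries (edgeR 4.0.16, R 4.3.3). The factor put 95.6% of its weight on N2V7_S4 and 0.46% on the 6 compared libraries. Levels are CPM computed here, and fold changes are fitted log2 values.

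P-values were adjusted by Benjamini-Hochberg over 9 comparisons, over 3 for the crRNA differences and over 2 for the effector differences. Named genes were C9orf72, the 15 largest rises and falls among called genes of at least 2 log2 CPM with no overlap, the 5 largest differences from S13, WT and N2V8 in each direction, up to 3 called members of each list, and the C9ORF72 complex. The members, the gene lists and this rule were chosen with earlier results of these data known. The script was tested on simulated data. There it called 71 of 15178 genes that were simulated without a difference between N2V7_S3 and N2V7_NTG. It found 86.6% of genes changed 1.5-fold, 95.5% of those changed 2-fold and 100% of those changed 3-fold. Same-numbered samples were checked for pairing. Each N2V7_S3 library correlated best with the N2V7_NTG library of its own number, but weakly, at 0.0119 to 0.0319. The main fit did not pair them. Alternatives were DESeq2 1.42.0, limma 3.58.1, other filters, adjustments and factors, and leaving out each library.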

Additional observations from a re-analysis of the deposited data

Results flagged for a closer look

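These results were singled out because the S3 effect differed between effectors by the interaction test of edgeR. Between N2V7 and WT it differed in 523 genes. Of the genes with the largest changes in N2V7_S3, those more positive in N2V7 than in WT were LNCTAM34A (1.40 on the log2 scale), FUT1 (1.63), CGA (1.31), SLC7A11 (1.18), AKNA (1.17), ASNSP1 (0.99), FLJ46906 (0.92), PURPL (0.84) and ASNS (0.82). Those more negative were HSPA1B (-1.33), GATD1 (-1.09), MIR1915HG (-0.93), ANXA1 (-0.87) and MRPL41 (-0.79). Other genes with the largest differences were ZNF767P (1.46), OVGP1 (1.37) and SMG1P3 (1.32) on the positive side, and H2AC18 (-2.70), H2BC21 (-2.38), MIR17HG (-1.99) and H4C15 (-1.70) on the negative side.

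Between N2V7 and N2V8 the effect differed in 23 genes. The largest positive differences were in MTMR7 (1.13), CDKL2 (0.90), NBEA (0.82), KRCC1 (0.77) and FOXP2 (0.66), and the largest negative ones in GALT (-0.74), FAM219B (-0.70), EFR3B (-0.67), SEMA4F (-0.51) and UBL5 (-0.38). None passed when the adjustment was made within this difference alone. Groups of 3 libraries were not searched for single outlying samples.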

How the results depend on the processing

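The 638 genes called in N2V7_S3 against N2V7_NTG became 361 at an adjusted p under 0.01, 463 to 724 under the other settings tried on all 6 libraries, and 508 to 631 without any 1 of them. The share called higher, 75.4%, was 60.7% without N2V7_S3 replicate 2. The 2364 genes called against S13 became 1880 to 2428, and 2108 to 2476 without any 1 library. The 523 genes that differed between N2V7 and WT became 254 at an adjusted p under 0.01, 177 without the factor, 792 with only the compared libraries, and 281 (without N2V7_NTG replicate 2) to 513 without any 1 library. The 23 genes that differed between N2V7 and N2V8 became 0 when adjusted alone, 1 at an adjusted p under 0.01, 1 without the factor, 118 with no low-count filter, 0 with only the compared libraries (1057 genes at an unadjusted p under 0.05) and 4 to 33 without any 1 library. The cause of these changes was not tested. The filter to the genes the authors kept was chosen after seeing the data and gave 631 genes. With a block for the replicate number, which the main fit leaves out, the counts were 640, 2365, 540 and 26.

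C9orf72 was at -0.161 to 0.0545 without any 1 library and was called in none of these fits; it was positive without N2V7_S3 replicate 2 (0.0545) or N2V7_NTG replicate 2 (0.0167). Other uncalled genes near 0 also changed sign when 1 library was left out: SMCR8 ranged over -0.0334 to 0.0539, WDR41 over -0.0589 to 0.0147, ULK1 over -0.0909 to 0.0287, ATG101 over -0.0730 to 0.104 and OPTN over -0.0630 to 0.0460. Of 73 named calls 30 were lost in at least 1 fit without 1 library, and of the 30 largest rises and falls 22 kept their call in every fit. Groups of 3 libraries limit the precision.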
